A study of Homo sapiens with 10 samples.

Results

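Accessible chromatin near the ends of the human autosomes was described from ATAC-seq of MDA-MB-231, an established line of triple-negative breast cancer. Outer peaks are the listed peaks that lie within 3 Mb of the outermost peak at a chromosome end. All 22 long-arm ends were used, and 17 short-arm ends, since the short arms of chromosomes 13, 14, 15, 21 and 22, which carry ribosomal repeats, were left out. These 39 windows span 117 Mb and hold 11645 of the 158693 autosomal peaks, out of 161934 peaks in the whole list. The rest of the autosomes holds 147048 peaks. Position alone chose the members, so the number, class, length and genes of the peaks can be compared with the rest.

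The study set 5 ARID1A knockout libraries against 5 control libraries of the same line. ARID1A is a subunit of the SWI/SNF complex, which moves nucleosomes and opens chromatin. The labels name no clone, guide or separate culture for any library. The list pools the series and holds 0 columns with a value per library, so no knockout against control difference could be computed, the depth per library is unknown, and no value below carries a replicate error. The chromosome, with its outer and its remaining part, was used as the pair in the 7 main tests, and ends or parts of an end in the other two.

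In ATAC-seq the Tn5 transposase inserts adapters where DNA is free of nucleosomes, and peaks mark active promoters, enhancers and sites bound by other factors. Human chromosomes end in arrays of the telomere repeat TTAGGG, which shelterin proteins protect and telomerase extends. Inside these arrays lie subtelomeres, made of sequence copied between chromosome ends, and then, on many arms, gene-dense DNA rich in G and C. Reads from copied sequence often map to several ends at once, and how the authors treated such reads is not given in the sources used here.

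The start regions of a few genes show what the DNA under outer promoter peaks looks like. The 4 genes of the telomere and cancer lists with the longest start peaks and an entry in the RefSeq promoter table are shown first, and then IRF4, a gene of the same lists without one. A start peak is a peak within 1000 bases of the gene's outermost 5′ boundary, and it need not cover the start itself. Each line gives the 250 bases before the start on the gene's own strand, 5′ to 3′, from RefSeq (GRCh38.p14). Capitals mark GGGCGG or its reverse complement CCGCCC, the GC box of SP and KLF factors.
ACTG1, chr17:81512800-81513049, minus strand: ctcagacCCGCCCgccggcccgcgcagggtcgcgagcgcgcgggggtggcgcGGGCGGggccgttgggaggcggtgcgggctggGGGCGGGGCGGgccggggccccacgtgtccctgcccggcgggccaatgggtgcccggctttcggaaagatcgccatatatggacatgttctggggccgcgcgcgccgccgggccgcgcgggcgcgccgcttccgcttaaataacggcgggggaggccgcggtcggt
DEAF1, chr11:707084-707333, minus strand: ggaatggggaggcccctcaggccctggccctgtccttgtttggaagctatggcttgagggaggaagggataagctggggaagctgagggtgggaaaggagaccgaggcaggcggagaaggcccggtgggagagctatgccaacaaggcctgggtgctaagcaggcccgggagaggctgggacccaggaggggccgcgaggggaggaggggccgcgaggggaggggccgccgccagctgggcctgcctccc
FOXC1, chr6:1609665-1609914, plus strand: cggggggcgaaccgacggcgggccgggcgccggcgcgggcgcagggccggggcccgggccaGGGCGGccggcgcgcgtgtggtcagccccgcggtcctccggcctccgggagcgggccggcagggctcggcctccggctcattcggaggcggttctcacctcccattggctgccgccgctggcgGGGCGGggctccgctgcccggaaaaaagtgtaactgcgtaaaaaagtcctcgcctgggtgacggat
GAS6, chr13:113864077-113864326, minus strand: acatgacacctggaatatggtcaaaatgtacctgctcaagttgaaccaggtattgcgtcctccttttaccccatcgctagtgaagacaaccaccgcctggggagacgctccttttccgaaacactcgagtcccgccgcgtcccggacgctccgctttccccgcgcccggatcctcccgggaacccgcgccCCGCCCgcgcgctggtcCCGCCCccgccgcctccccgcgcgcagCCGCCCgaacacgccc
IRF4, chr6:391502-391751, plus strand: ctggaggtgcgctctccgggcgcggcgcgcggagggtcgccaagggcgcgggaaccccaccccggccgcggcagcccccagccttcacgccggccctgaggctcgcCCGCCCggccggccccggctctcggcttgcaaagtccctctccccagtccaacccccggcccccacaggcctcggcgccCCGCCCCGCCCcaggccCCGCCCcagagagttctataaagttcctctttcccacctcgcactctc

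ACTG1 encodes cytoplasmic gamma actin, and a peak of 3121 bases (81512379 to 81515499) covers its start. The printed stretch is 78.8% G and C, with 43 CpG dinucleotides and 4 GC boxes. DEAF1, a transcription factor gene, has a start peak of 2926 bases, but its stretch holds 10 CpG and 0 GC boxes at 69.6% G and C. FOXC1, a forkhead factor known from basal-like breast cancer, has a start peak of 2819 bases over a stretch with 37 CpG and 2 GC boxes. GAS6, the ligand of the receptor kinase AXL, has one of 2533 bases over 31 CpG and 3 GC boxes. IRF4, a lymphocyte transcription factor, has 28 CpG and 4 GC boxes at 76% G and C, and 0 listed peaks lie over it. None of the 5 stretches holds the AP-1 motif TGANTCA on either strand. The GC box therefore occurs here both under a peak and without one.

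Chromosome ends held more peaks per length than the rest of the same chromosome. The median autosome had 103 peaks per Mb in its outer windows and 54.5 per Mb elsewhere, and the median difference was 44.4 per Mb, with a range of -5.38 to 107. The outer density was higher on 19 of 22 autosomes (exact two-sided sign test over chromosomes, adjusted p = 0.0015, Benjamini-Hochberg over 7 measures). With the short-arm ends alone the difference was 43.3 per Mb, higher on 14 of 17 autosomes, and did not pass (exact sign test, adjusted p = 0.0891). Pooled over chromosomes, outer windows held 99.5 peaks per Mb and the rest 54.8 per Mb. Outer windows thus held 7.34% of the autosomal peaks on 4.18% of the listed span and 8.85% of the protein-coding genes (1609 of 18174).

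Chromosomes differed widely in this contrast. Chromosome 21 had 98.0 peaks per Mb in its outer window and 31.8 elsewhere, a ratio of 3.08. Chromosome 13 had 164 per Mb in its outer window and 56.3 elsewhere (ratio 2.91), and chromosome 16 had 145 in its outer windows and 51.3 elsewhere (ratio 2.82). On the 3 exceptions the outer value was the lower one. Chromosome 3 had 46.2 peaks per Mb in its outer windows and 51.5 elsewhere, chromosome 22 had 52.7 in its outer window and 57.5 elsewhere, and chromosome 18 had 28.2 in its outer windows and 29.9 elsewhere. The line is known to be aneuploid. Since no copy number was taken here, the part it has in the densities was not tested.

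**Figure D1:**
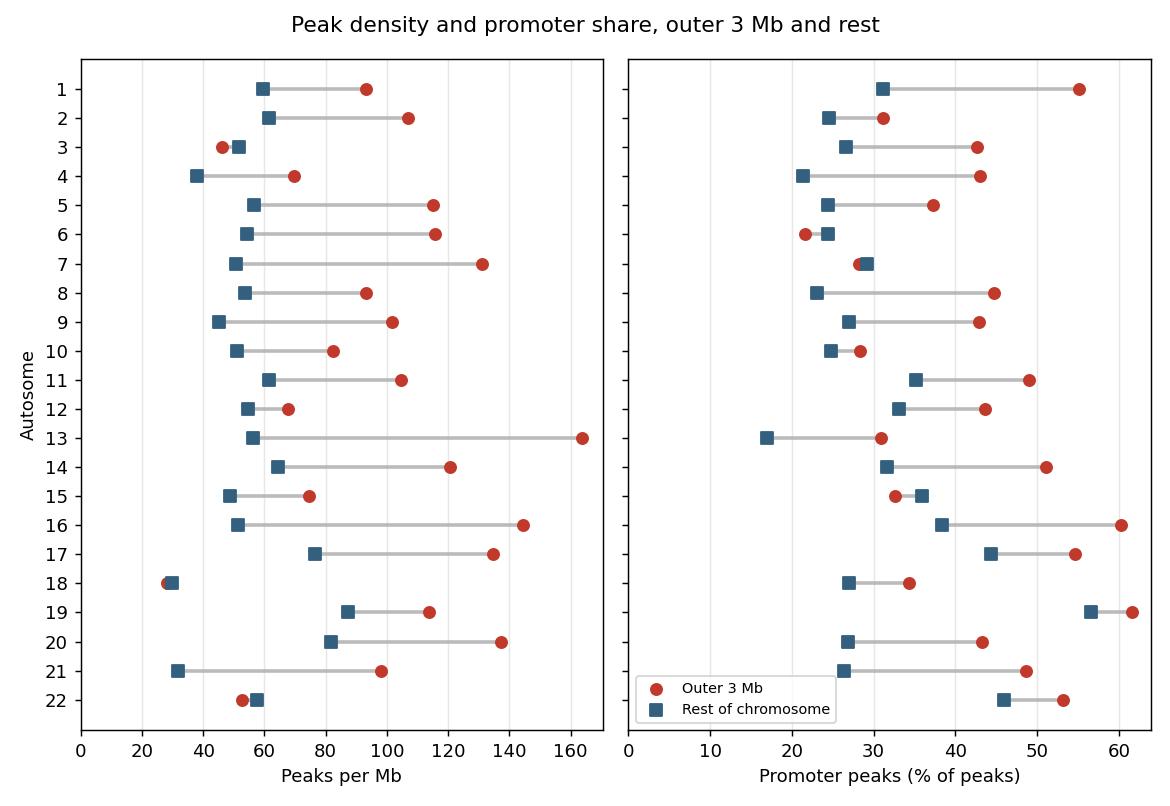
Peaks per Mb (left, x axis) and promoter peaks as a percentage of peaks (right, x axis) in the outer 3 Mb (red circles) and the rest (blue squares) of each autosome (y axis), with a grey line joining the pair. The circle lies to the right of the square on 19 of 22 autosomes in each panel; the exceptions are chromosomes 3, 18 and 22 for density and chromosomes 6, 7 and 15 for promoter share.

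Promoters, the annotation class for peaks within 3000 bases of a transcript start, made up more of the outer peaks. The median autosome had 43.1% promoter peaks in its outer windows and 27.0% elsewhere, a median difference of 13.3 percentage points (higher on 19 of 22, exact sign test, adjusted p = 0.0015). The short-arm ends alone gave 7.59 points, which did not pass (exact sign test, adjusted p = 0.114). Distal intergenic peaks, away from any gene, were the smaller share at the ends, with a median of 23.4% in outer windows and 29.1% elsewhere. That share was lower on 20 of 22 autosomes (median difference -5.96 points, exact sign test, adjusted p = 0.000848). With the short-arm ends alone it was lower by 4.09 points and did not pass (exact sign test, adjusted p = 0.465).

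Over all members, 5008 outer peaks were promoter peaks (43.0%, 95% Wilson interval 42.1 to 43.9), against 29.3% of the rest (29.1 to 29.6). Such intervals cover counting error over peaks only, and neighbouring peaks are not independent. Introns held 26.4% of outer peaks and 34.8% of the rest. Exons held 3.50% of outer peaks and 2.69% of the rest, and regions just downstream of genes held 1.58% of outer peaks and 1.20% of the rest. The 3′ UTRs held 1.85% of each, and 5′ UTRs 0.215% of outer peaks and 0.218% of the rest. Outer peaks lay within 1000 bases of a start in 27.9% of cases, against 19.1% of the rest. Peaks more than 50000 bases from any start were 4.77% of outer peaks and 11.99% of the rest.

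Peaks outside promoters were also denser at the ends than in the whole remaining chromosome. The median autosome had 55.3 such peaks per Mb in outer windows and 38.1 elsewhere (median difference 18.4, higher on 19 of 22, exact sign test, adjusted p = 0.0015). This call depended on what the ends were compared with. Against only the stretch 3 to 15 Mb from the ends, a comparison added after the values were seen, the non-promoter difference was 5.63 per Mb and did not pass (14 of 22, exact sign test, adjusted p = 0.401). It did not pass with the short-arm ends alone either (10.1 per Mb, exact sign test, adjusted p = 0.114). Against the same 3 to 15 Mb stretch, the density of all peaks stayed higher at the ends (26.9 per Mb, 19 of 22, adjusted p = 0.002), as did the promoter share (12.8 points, 21 of 22, adjusted p = 7.68e-05), both by the exact sign test.

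Whether peak length differed depended on the setting. The median outer peak on an autosome was 559 bases long, against 537 elsewhere, with a median difference of 9.25 bases that did not pass (13 of 22, exact sign test, adjusted p = 0.523). Outer peaks were called longer with windows of 5 Mb (18.25 bases, adjusted p = 0.00608), with peaks of the median length or longer (28 bases, 0.0015) and after merging near peaks (42.25 bases, 0.0237), by the same exact test, and with long-arm ends alone the difference was -1.75 bases (adjusted exact p = 1). Over all members the medians were 557 bases for outer peaks and 538 for the rest. Within classes, outer promoter peaks had a median of 662 bases and the remaining promoter peaks 683. Outer intron peaks had a median of 486.5 bases and the remaining intron peaks 489. Outer distal intergenic peaks had 519 bases and the remaining ones 506. Peaks of 2000 bases or more were 183 of the outer peaks (1.57%) and 1514 of the rest (1.03%).

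Within the windows, density was higher in the outermost 0.5 Mb than in the innermost, but it did not rise steadily toward the tip. The outermost 0.5 Mb had a median of 96 peaks per Mb over the 39 ends and the innermost 0.5 Mb, from 2.5 to 3 Mb, had 72. The outermost value was higher at 27 of 39 ends (median difference 26 per Mb, exact two-sided sign test, unadjusted p = 0.0237). Both ends of a chromosome entered this test as separate pairs, though they may not be independent. The 4 bins between them, from outside inward, had medians of 116, 120, 124 and 76 per Mb, so the highest median lay at 1.5 to 2 Mb and not at the tip. The outermost 0.5 Mb held 16 peaks per Mb at the sparsest end and 210 at the densest. Each window begins at a peak, so none could be empty there.

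Promoter peaks and genes became sparser inward, and peaks outside promoters less so. In steps of 1 Mb from the tip, promoter peaks had medians of 45, 46 and 27 per Mb inside the 3 Mb window, then 25, 20 and 14 per Mb in the next 3 steps. Non-promoter peaks had medians of 51, 58 and 47 per Mb inside the window and 53, 59 and 43 in the next 3 steps. Protein-coding genes had medians of 13, 12 and 7 per Mb inside the window and 5, 6 and 5 per Mb just beyond it. The limit of 3 Mb is not a step in the data. The last 0.1 Mb inside it held 347 peaks (89.0 per Mb, 35.2% promoter, median 532 bases) and the first 0.1 Mb outside it held 369 (94.6 per Mb, 33.3% promoter, median 540 bases).

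**Figure D2:**
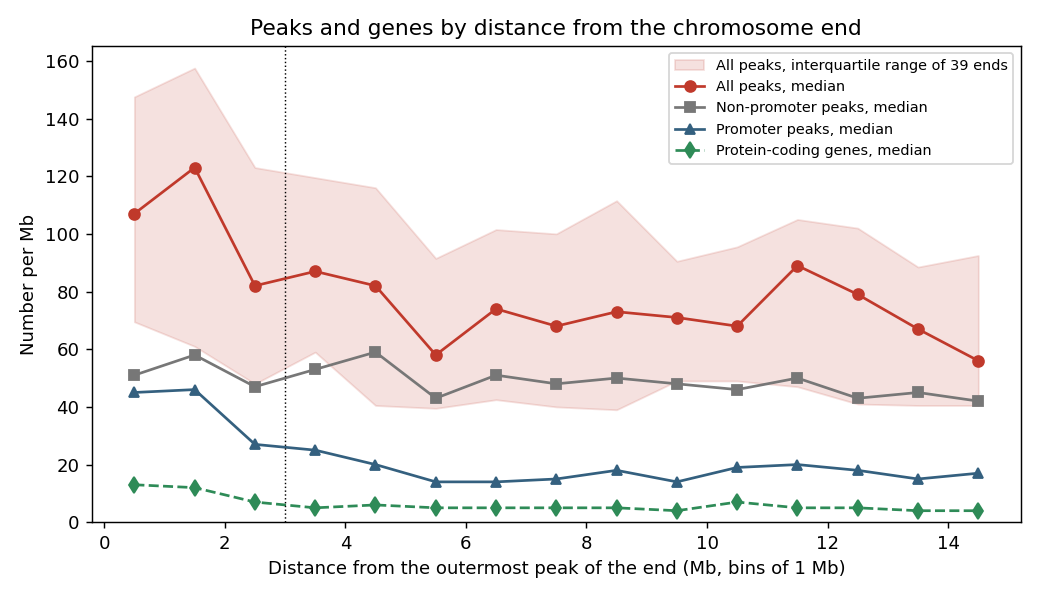
Median number per Mb (y axis) over the 39 chromosome ends in bins of 1 Mb against distance from the outermost peak (x axis, Mb), for all peaks (red, with the interquartile range of the ends shaded), non-promoter peaks (grey), promoter peaks (blue) and protein-coding genes (green). The dotted line marks 3 Mb; all peaks stand at 107, 123 and 82 per Mb inside it and 87 per Mb just beyond, while promoter peaks go from 45 and 46 per Mb near the tip to 14 per Mb at 5 to 6 Mb.

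The ends differed widely from each other. The 39 windows held between 59 and 548 peaks, with a median of 291. Density was above that of the rest of the chromosome at 32 of 39 ends, 14 of 17 short-arm and 18 of 22 long-arm ones, and at least 2 times as high at 13. Short-arm ends held 4757 of the outer peaks and long-arm ends 6888. On the 17 chromosomes with both ends, the short-arm end had a median of 92 peaks per Mb and the long-arm end 97. The short-arm value was higher on 7 of 17 (median difference -25 per Mb, exact two-sided sign test, unadjusted p = 0.629). The range of the pairs was wide. On chromosome 19 the short-arm end had 174 peaks per Mb and the long-arm end 53.7, and on chromosome 9 they had 45.7 and 158.

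The densest end was that of the long arm of chromosome 20 (20q), with 548 peaks or 183 per Mb, against 81.7 per Mb in the rest of the chromosome. Its leading genes by peaks in the body were CDH4, which encodes retinal cadherin (79), TAF4, a subunit of the general transcription factor TFIID (21), and MYT1 (19). The end of 19p followed with 522 peaks, 174 per Mb against 87.2 in the rest. There GNG7, a G protein gamma subunit, held 29 peaks, SBNO2 16, and the vesicle adaptor gene AP3D1 and ARID3A, a DNA-binding protein with an ARID domain, 11 each. The end of 13q had 491 peaks, 164 per Mb. It held MCF2L, a guanine nucleotide exchange factor (54 peaks), RASA3, which switches RAS-family GTPases off (45), ATP11A, a lipid flippase (29) and TMEM255B (15). MCF2L and RASA3 carried 2.63 and 2.91 peaks per 10 kb of gene, against 1.17 over all outer genes and 0.698 over the remaining genes.

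The sparsest ends were 18q, 3p and 18p. The end of 18q had 59 peaks, 19.7 per Mb against 29.9 in the rest, led by the flippase gene ATP9B (8), then KCNG2 and NFATC1, the calcium-regulated T cell factor (6 each), and CTDP1 (4). The end of 3p had 62 peaks, 20.7 per Mb against 51.5, the lowest ratio of any end at 0.401. It holds 3 protein-coding genes, CNTN4 (16 peaks), CHL1 (8) and CNTN6 (6), all neuronal adhesion molecules, and 9.68% of its peaks were in promoters. The end of 18p had 110 peaks, 36.7 per Mb against 29.9 in the rest, with COLEC12 (11), LPIN2 (10), and EMILIN2 and ENOSF1 (6 each). Apart from 18q and 3p, the ends below the rest of their chromosome were 19q (ratio 0.616), 8p (0.789), 11q (0.813), 22q (0.916) and 12p (0.957).

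**Figure D3:**
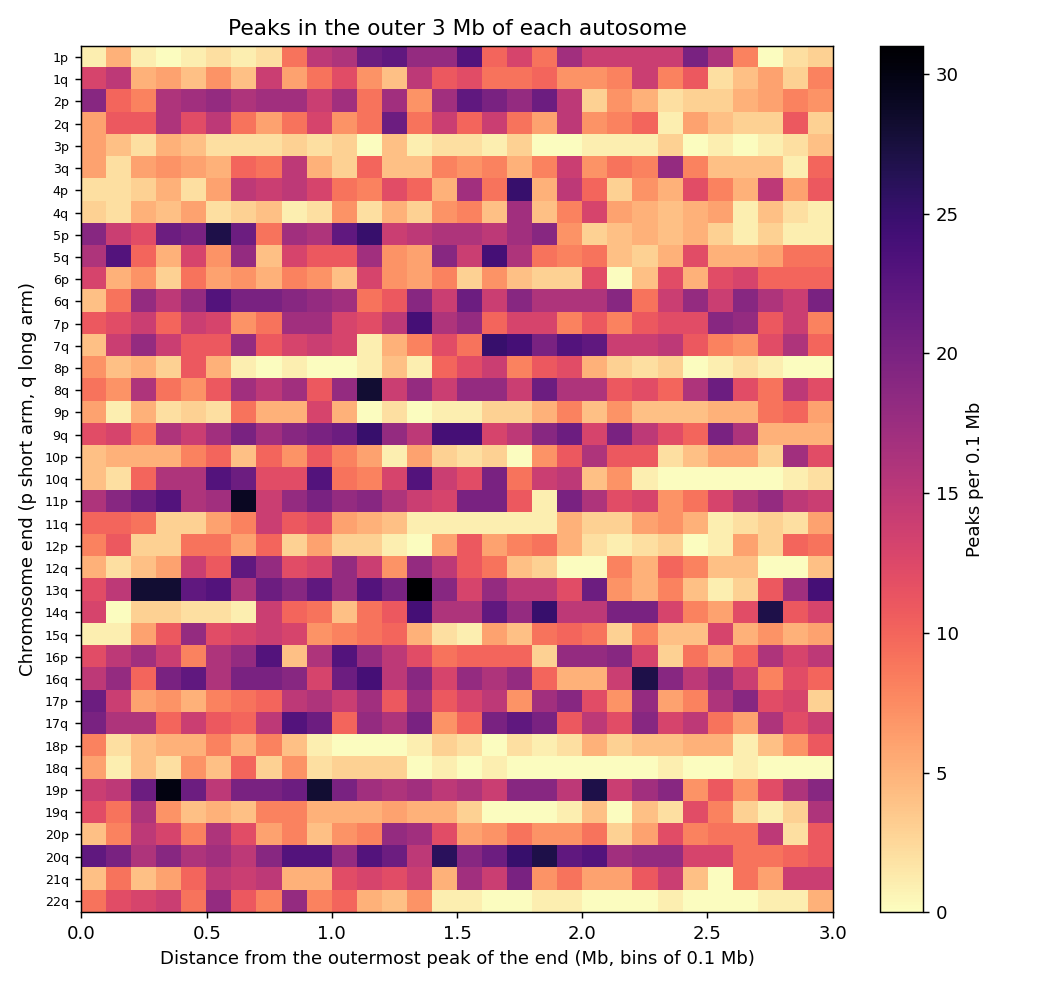
Peaks per 0.1 Mb (colour scale) along the outer 3 Mb of the 39 chromosome ends (y axis, p for short and q for long arms), from the outermost peak at the left to 3 Mb inward (x axis). The rows of 20q, 19p and 13q are dark along most of their length and those of 3p, 18p and 18q pale; the darkest bin, 31 peaks, lies at 13q.

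On the scale of 0.1 Mb, the 1170 bins of the outer windows had a median of 9 peaks, and 59 (5.04%) had none. The fullest bin held 31 peaks and lies within MCF2L at 13q. The next, with 30, lies at 19p over BSG, the gene of basigin, with GZMM, HCN2, POLRMT and FGF22. A bin at 11p with 29 peaks holds CD151, a tetraspanin of cell adhesion, and the ribosomal protein gene RPLP2, among others. Bins with 28 peaks lie at 8q over EPPK1 and PLEC, both cytoskeletal linkers of epithelial cells, at 13q over RASA3 (a pair of adjacent bins) and at 19p over SBNO2 and STK11. The median gap between neighbouring peaks ran from 3578.5 bases at 13q to 27882 bases at 3p.

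Several ends stood above every other 3 Mb window of their chromosome. The autosomes hold 884 inner windows of 3 Mb, with a median of 157 peaks, a 90th percentile of 286 and a maximum of 467. Of the 39 ends, 20 lay above that percentile. At 13 ends (5p, 6q, 7p, 7q, 8q, 9q, 11p, 13q, 16q, 17q, 19p, 20q and 21q) the window held more peaks than any inner window of the same chromosome. Among the 20 windows with most peaks of all 923, 10 were chromosome ends. These ranks are a description of 1 list and carry no test.

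Gene number went with peak number at the ends, and more closely with the kind of peak. Over the 39 ends the correlation of peaks with protein-coding genes was r = 0.54 (Spearman 0.58), and that of the promoter share with genes was r = 0.85 (Spearman 0.86). For non-promoter peaks it was r = 0.04 (Spearman 0.19). Over the 884 inner windows the same 3 relations had r of 0.64, 0.78 (867 windows with peaks) and 0.31. Windows of 1 list share libraries, annotation and mappability, so no p is given.

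In classes of gene number the ends had the higher median in each class, by most in the richest. That class has no upper limit, so gene number is matched only loosely there. With 60 or more genes, the 9 ends had a median of 441 peaks and the 42 inner windows 289.5. Outside promoters these medians were 206 at the ends and 122.5 in inner windows. With 20 to 39 genes, the 12 ends had 284.5 peaks and the 181 inner windows 204. The medians lay closer with 10 to 19 genes (177 over 8 ends, 167 over 291 inner windows) and with 40 to 59 genes (285 over 6 ends, 277 over 51). With fewer than 10 genes, the 4 ends had a median of 135.5 (62 to 364) and the 319 inner windows 90 (0 to 330). Inner windows can lie in stretches without peaks, while each end window begins at a peak.

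**Figure D4:**
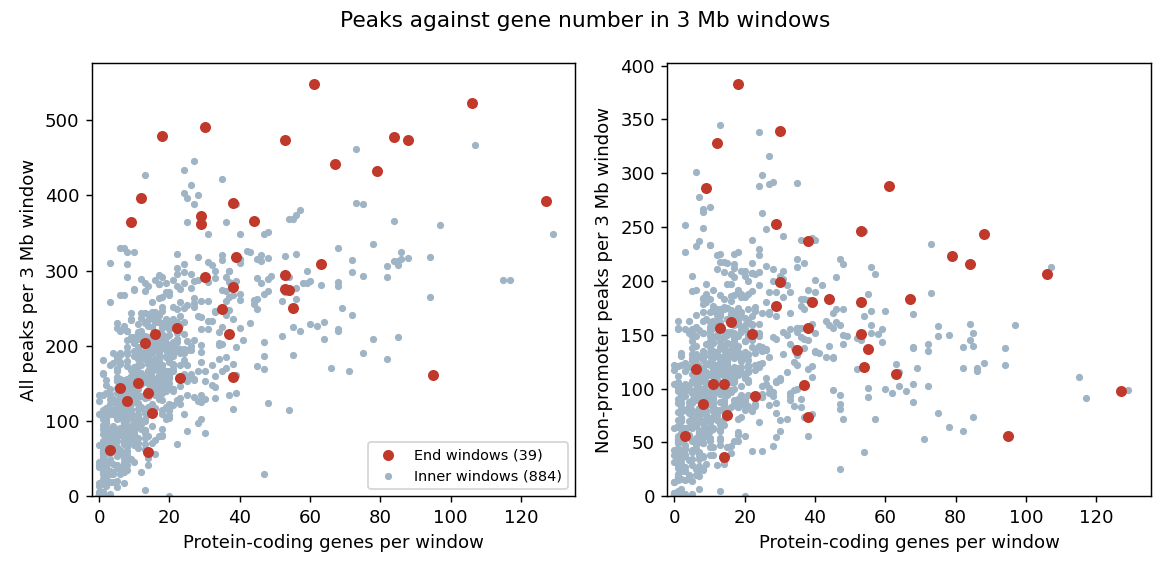
All peaks (left, y axis) and non-promoter peaks (right, y axis) per 3 Mb window against its number of protein-coding genes (x axis), for 39 chromosome ends (red) and 884 inner windows (grey blue). Ends with 60 or more genes have a median of 441 peaks against 289.5 in inner windows; at the ends the number of non-promoter peaks shows little relation to gene number (r = 0.04).

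Some ends were dense with few genes. At 6q the window held 479 peaks, 160 per Mb, with 18 protein-coding genes. There 51.1% of peaks were distal intergenic, and non-promoter peaks reached 128 per Mb, the highest of any end. Its genes with most peaks were WDR27 (36), SMOC2, a secreted matrix protein (34), AFDN, the junction protein afadin (21) and FAM120B (20). At 7q, 132 peaks per Mb went with 12 genes, and 53.9% lay in introns. The gene PTPRN2, a receptor-type phosphatase-like protein of secretory vesicles, alone held 130 of its 397 peaks. At 2p, 121 peaks per Mb went with 9 genes, led by MYT1L, a neuronal zinc finger factor (58), SNTG2, a syntrophin (54), and PXDN (23).

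Other ends were gene-rich, with fewer peaks outside promoters than the median end, which had 52.0 per Mb. Such peaks stood at 32.7 per Mb at 16p, against 31.6 in the rest of chromosome 16. They stood at 18.7 per Mb at 19q, against 37.8 in the rest of chromosome 19. At 16p the window held 393 peaks and 127 genes, 3.09 peaks per gene, and its promoter share of 75.1% was the highest of any end. At 19q, where zinc finger genes lie in clusters, 95 genes came with 161 peaks, 1.69 per gene. The density there was 53.7 per Mb, against 87.2 in the rest of the chromosome, and 65.2% of peaks were in promoters. Promoter peaks exceeded 50% at 10 of 39 ends. Counted per gene, the outer windows did not pass as different from the rest, with a median of 6.98 peaks per gene on an autosome in outer windows and 9.12 elsewhere. That value was lower on 15 of 22 autosomes (median difference -1.36, exact sign test, adjusted p = 0.187). Against only the stretch 3 to 15 Mb from the ends it passed (-2.09, adjusted exact p = 0.0296), and with short-arm ends alone it turned direction (0.382, adjusted exact p = 1).

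Genes at the ends were not shown to differ from others in how often their start was marked. Of 1603 outer protein-coding genes whose strand is known, 1230 had a start peak (76.7%, 95% Wilson interval 74.6 to 78.7), against 74.7% of genes in the rest (12329 of 16503, 74.0 to 75.4) and 74.9% of all autosomal genes. By autosome the medians were 77.1% for outer genes and 74.5% for the others, and the difference of 2.13 points did not pass (higher on 14 of 22, exact sign test, adjusted p = 0.334). With a start window of 3000 bases it did pass (5.32 points, 18 of 22, exact sign test, adjusted p = 0.00608). It turned direction with long-arm ends alone (-0.233 points, adjusted exact p = 1) and against only the stretch 3 to 15 Mb from the ends (-1.49 points, adjusted exact p = 0.611). Genes absent from the RefSeq promoter table were kept only where the list names a transcript at their boundary. The shares above, including the 74.9%, may therefore be too high. With only genes that have a RefSeq start, the difference was 1.90 points over 21 autosomes. It did not pass (exact sign test, adjusted p = 0.447). Outer genes had a median length of 15514 bases against 27117 for the others, while the median number of peaks in the body was 2 in both groups.

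Outer start regions were richer in G and C by their median. Windows of 300 bases, from 250 before to 50 after the start, were read for 1127 outer genes and 12059 others. Their median G and C content was 69.3% at outer starts and 62.3% at the others, with a median of 31 and 22 CpG dinucleotides. The GC box GGGCGG, on either strand, was present in 69.9% of outer and 57.9% of other start regions, and in 58.9% of all. The AP-1 motif TGANTCA, the site of FOS and JUN factors, was present in 3.82% of outer and 5.90% of other start regions, and in 5.72% of all. The telomere repeat TTAGGG in 2 adjacent copies was in 0 outer start regions and 1 other. No searched motif contains another, and a match is a description, not a bound site.

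Within the outer genes, start regions with and without a start peak differed in the same features. The 870 with a start peak had a median of 71.3% G and C and 35 CpG, and 78.5% held a GC box, as in the printed stretches of ACTG1, FOXC1 and GAS6. The 257 without one had 60.3% G and C and 9 CpG, and 40.9% held a GC box. In the rest of the autosomes, 67.9% of 9111 start regions with a start peak and 26.8% of 2948 without one held a GC box. The AP-1 motif was present in 2.99% of outer start regions with a peak and 6.61% of those without, and in the rest in 4.99% and 8.68%.

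The matched genes of telomere maintenance that themselves lie near an end all had a start peak. Of the 24 genes of this list, 20 were matched on the autosomes. TERT, the catalytic subunit of telomerase (chromosome 5, 1253167 to 1295068, 1241 kb from the outermost peak of 5p), had one of 1219 bases at 1294489 to 1295707, over its start, and 8 peaks in its body. RTEL1, a helicase that resolves telomere loops (20q), had one of 1021 bases and 7 body peaks. RPA1, a subunit of the single-strand binding protein (17p), had one of 1279 bases and 6 body peaks. The 17 genes of this list matched in the rest of the autosomes also had a start peak in 17 of 17 cases, and 74.9% of all genes have one.

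Of the cancer and signalling genes near ends, 42 of 44 had a start peak, against 8 of 8 in the rest of the autosomes and 74.9% of all genes. The longest were at ACTG1, DEAF1, FOXC1 and GAS6, given above. They were followed by MAPK12, a stress-activated kinase (2490 bases), CUL4A, a scaffold of ubiquitin ligases (2324 bases), the forkhead factor gene FOXQ1 (2282 bases), RASA3 (2279 bases) and the kinase gene AKT1 (2247 bases). Growth factor and RAS pathway genes were also marked. FGFR3, a fibroblast growth factor receptor, had a peak of 1869 bases, the receptor gene NOTCH1 one of 1883 bases and HRAS one of 1035 bases. The tumour suppressor gene STK11 had a short one of 636 bases, and RPTOR, a subunit of the mTOR complex, had 931 bases with 50 body peaks. IRF4, without a start peak, had 1 body peak.

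Housekeeping genes near ends had a start peak in 8 of 8 cases, and the 10 elsewhere in 10 of 10, against 74.9% of all genes. Examples are TBP, the TATA-binding protein gene at 6q (1927 bases), SDHA of the respiratory chain at 5p (1627 bases), TFRC, the transferrin receptor gene at 3q (1515 bases), and RPLP2 at 11p (1275 bases).

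The alpha-globin cluster lies within 200 kb of the outermost peak of 16p, between broadly used genes. Of its 11 listed genes, 10 had a start peak, against 74.9% of all genes, and none of the list lies in the rest. The longest, 2784 bases (76022 to 78805), is shared by RHBDF1, a rhomboid-like protein gene, and MPG, a DNA glycosylase gene, which start back to back. POLR3K and SNRNP25 share one of 1276 bases in the same way, and LUC7L had one of 922 bases. NPRL3, whose introns hold globin enhancers, had one of 472 bases. Among the globin genes, HBQ1 had one of 841 bases, the embryonic gene HBZ one of 391 bases, HBM one of 289 bases and HBA1 one of 266 bases, while HBA2 had none. The peaks of HBA1 (177420 to 177685) and HBQ1 (181126 to 181966) begin inside these short genes and run past their far end, so they count as start peaks only through the window of 1000 bases. HBA1 and HBA2 are near-identical copies, so reads cannot be assigned firmly to either, and the state of both is uncertain.

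The imprinted region of 11p, in the inner part of the window, had start peaks at 10 of 11 matched genes, against 74.9% of all genes. The list holds 14 genes, and the unmatched ones were not counted. The longest was at PHLDA2, a growth-restraining gene expressed from the maternal copy (2192 bases), and NAP1L4 had 1549 bases. CDKN1C, a cell cycle inhibitor, had 1169 bases, and the growth factor gene IGF2 had 898 bases. The insulin gene INS, which is specific to the pancreas, had a peak of 254 bases (2160098 to 2160351). It lies inside the gene, past its start, and counts as a start peak only through the start window. KCNQ1, a potassium channel gene whose body holds an imprinting centre, had 45 body peaks. H19, the imprinted RNA gene, had neither a start peak nor a body peak in the list.

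Nearer the tip of 11p lie the interferon-induced membrane protein genes and their neighbours, with a start peak at 8 of 8, against 74.9% of all genes. IFITM1, which blocks virus entry, had one of 2056 bases, IFITM3 one of 1027, IFITM2 one of 623 and the bone gene IFITM5 one of 426 bases. PKP3, a desmosome plaque gene, had 2086 bases and IRF7, a master factor of interferon induction, 871 bases. IFITM genes resemble each other closely, and reads shared among them may be split. The gel-forming mucin genes of the same end had no start peak at MUC6, MUC5AC and MUC5B, though these held 6, 7 and 9 body peaks. MUC2 had a peak of 2717 bases (1071671 to 1074387) just before its start, and the flanking genes AP2A2 and TOLLIP had 1296 and 1195 bases. In all, 3 of the 6 genes of that list had a start peak, against the same 74.9%.

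Matrix genes at the ends had a start peak at 5 of 6, against 3 of 3 in the rest and 74.9% of all genes, a share that 5 of 6 is near to. COL18A1, the source of endostatin, had one of 2110 bases, COL6A1 one of 1417, COL6A2 one of 1150 and COL9A3 one of 1115 bases. LAMA5, a laminin chain of basement membranes, had a short one of 301 bases and 15 body peaks. COL23A1, a membrane collagen, had none at its outermost start and 29 body peaks.

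Brain-expressed genes near ends had a start peak at 11 of 17, against 74.9% of all genes, with a median of 18 body peaks, against a median of 2 over all outer genes. In the rest of the autosomes 1 of the 6 genes of that list had one. PTPRN2 had a start peak of 999 bases and 130 body peaks, and DIP2C one of 2104 bases and 30 body peaks. OPCML, a cell adhesion gene, had one of 422 bases and 35 body peaks. Those without one were SLC6A3, the dopamine transporter gene, VIPR2, DLGAP2, the calcium channel gene CACNA1B, MYT1 and SHANK3. Body peaks were many in CACNA1B (31), DLGAP2 (22) and VIPR2 (21) all the same. VIPR2 had a peak at another annotated start. These genes were not matched in length to others.

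Developmental transcription factor genes near ends had a start peak in 7 of 15 cases, against 8 of 14 in the rest and 74.9% of all genes. FOXC1, FOXQ1 and the Notch target gene HES4 (2211 bases) had long ones, and MNX1 (1558 bases), LHX3 (1115 bases), SOX18 (1025 bases) and GATA5 (399 bases) shorter ones. HES5, DUX4, IRX4, IRX2, FOXF2, NKX6-2, SOX8 and ONECUT3 had none at their outermost start. Of these, HES5, FOXF2 and NKX6-2 also had 0 body peaks, and IRX4 had a peak at another annotated start.

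Large gene families at the ends differed in how many members were marked, beside 74.9% of all genes. Zinc finger genes named ZNF had a start peak at 80 of 93 near ends and at 301 of 357 in the rest. Many of those near ends lie at 19q, where many have the start peak as their 1 body peak, and the longest in the family near an end was at ZNF276 (2314 bases, 16q). Olfactory receptor genes had one at 16 of 50 near ends and at 45 of 292 in the rest. All of these 16 except OR6B3 at 2q lie at 1q, so the share near ends mainly describes 1q. At OR2B11, OR2G2, OR14A2, OR14K1, OR2W3, OR2AK2, OR14C36, OR2T2 and OR2T10 the peak lies inside the gene, past its start. At OR14L1 and OR2M5 it lies before the start without reaching it. All of these count only through the start window. At OR2L13, OR2AJ1, OR2L5, OR14I1 and OR6B3 the peak covers the start. Keratin-associated protein genes of hair had one at 5 of 21 near ends and at 10 of 67 in the rest. Subtelomeric families proper, the TUBB8, DUX4, FRG2, WASH and OR4F genes, had one at 1 of 10, TUBB8 at 10p (513 bases), and at 3 of 4 placed elsewhere. Among the 10, OR4F17 at 19p and TUBB8B at 18p lie wholly beyond the outermost peak of their end, so neither could have a start peak. OR4F17 is also among the 50 olfactory receptor genes. These families have near-identical copies at other ends, so a missing peak says nothing firm about them.

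The outermost peaks came close to the start of the assembled short arms. At 9 of 17 short-arm ends the outermost peak began below base 15000. The nearest began at base 10014 on 16p (504 bases long), 10034 on 7p (166 bases) and 10049 on 4p (423 bases). Reads from sequence copied between ends can map to several of them, so the origin of peaks this near the tip is uncertain. The outermost peaks also set where the windows begin. The farthest began at 244807 on 19p, 203937 on 8p and 175744 on 11p. The same distance could not be given for long arms, since the sources used here hold no chromosome lengths.

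The longest outer peaks lay mainly at gene starts. The longest, 3651 bases at 5q (181232510 to 181236160), lies at TRIM41 and RACK1, a ubiquitin ligase gene and a ribosomal scaffold gene. SQSTM1, the gene of an autophagy receptor, also at 5q, had 3616 bases, and SMARCA2, an ATPase of the SWI/SNF complex, had 3366 bases at 9p. Then came a peak of 3363 bases at 8q, which the list puts in a 3′ UTR, at PLEC, the plectin gene, and SOX12 at 20p (3353 bases). TNK2, a non-receptor tyrosine kinase, had 3339 bases at 3q, PTBP1, a splicing regulator, with its neighbour PLPPR3 had 3194 bases at 19p, and ACTG1 came next. A peak of 3057 bases at 4p lies at NOP14, a ribosome assembly gene. The tenth, 3018 bases at 9q (136150976 to 136153993), is distal intergenic, 28455 bases from the nearest listed start.

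The outer genes with most peaks in their body were PTPRN2 (130), CDH4 (79), MYT1L (58), MCF2L and SNTG2 (54 each), RPTOR (50), ANKRD11, a chromatin regulator (47), KCNQ1 and RASA3 (45 each) and SMYD3, a methyltransferase (44). Their lengths run from 154841 bases (RASA3) to 1048768 bases (PTPRN2). Per 10 kb of gene, RASA3 had 2.91 peaks, MCF2L 2.63, ANKRD11 2.11 and SMYD3 0.581. Of these 10 genes, SNTG2 alone had no start peak at its outermost start.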

How the data were processed

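ATAC-seq libraries of 5 ARID1A knockout and 5 control samples were made from lysed cells by Tn5 tagmentation and PCR, per the labels' protocols. Bowtie2 2.3.5.1, MACS2 2.2.6 and build hg38 appear in the submitters' processing notes. Threshold, duplicate handling, read shift, pooling of libraries and the gene annotation used were not given in the sources used here, and they set the number and edges of peaks. Per the file headers, the deposited list has 17 columns, with the coordinates and width in bases of every peak, its class, and the transcript closest to it. It holds no height, score or value per library, so the planned count tests between genotypes were not run and depth is unknown.

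Outer and remaining values of 22 autosomes were compared by an exact two-sided sign test with Benjamini-Hochberg adjustment over 7 measures and a threshold of 0.05. The lookup and tests were checked on simulated data. Of 19122 autosomal protein-coding genes in the RefSeq table (GRCh38.p14), 948 were left out as not placed. They had no strand in the promoter table and no boundary within 500 bases of a transcript the peak list names. The list names only transcripts closest to a peak. Genes absent from the promoter table were thus kept only by way of a peak, and gene numbers and start-peak shares depend on this. Strand came from the RefSeq promoter table for 15100 of the other 18174 genes, from listed transcripts within 500 bases for 3006, and 68 had none. Where both gave one, it was the same for 11885 of 11970. Genes were assigned to a window or the rest by their midpoint, and those beyond the outermost peak of an end were counted as outer. The promoter table does not cover every gene, among them those of chromosome 8. Not every listed gene was matched to a kept autosomal gene. Matched were 20 of 24 telomere, 52 of 53 cancer and 11 of 14 imprinted genes. For the brain list it was 23 of 24 and for the housekeeping list 18 of 20. Whether the unmatched genes had a start peak is unknown. Named genes are those of the lists near an end, the 10 longest peaks, the 10 genes with most peaks, the leading genes of the 3 densest and 3 sparsest ends, and the outermost peaks; a few genes these rules take are not reported here. Genes of other ends and of the fullest 0.1 Mb bins were added after their values were seen. Members and lists were chosen with earlier results of these data known. Python 3.11.15, numpy 2.4.6, pandas 2.3.3, scipy 1.17.1 and matplotlib 3.10.9 were used.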

Additional observations from a re-analysis of the deposited data

How the results depend on the processing

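No paired analysis was possible because no column ties peaks to libraries. The replicate block, other normalizations, count filters and tests, and fits without each library, all planned, therefore could not be made. Of 86 values under alternative settings, 72 kept both direction and call, 5 lost a call, 5 gained one and 4 turned direction. With short-arm ends alone, the difference between outer windows and the rest was 43.3 peaks per Mb (14 of 17 chromosomes, adjusted exact p = 0.0891), 7.59 points of promoter share (adjusted exact p = 0.114), -4.09 points of distal intergenic share (0.465), 10.1 non-promoter peaks per Mb (0.114) and 0.382 peaks per gene (1). Fewer chromosomes entered these tests. With long-arm ends alone, median length differed by -1.75 bases and genes with a start peak by -0.233 points (adjusted exact p = 1 for both). The difference in median length was 18.25 bases with windows of 5 Mb (adjusted exact p = 0.00608), 28 bases with longer peaks only (0.0015) and 42.25 bases after merging peaks within 500 bases (0.0237). Genes with a start peak differed by 5.32 points with a start window of 3000 bases (adjusted exact p = 0.00608). Against only the stretch 3 to 15 Mb from the ends, chosen after seeing the data, the differences were -2.09 peaks per gene (0.0296), 5.63 non-promoter peaks per Mb (0.401) and -1.49 points of genes with a start peak (0.611). The cause of these changes was not tested. Removing stretches of 1000000 bases without a peak was applied to the densities only. Chromosomes of 1 cell line are not replicates of a condition, and the depth limit is unknown.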
